A study of Saccharomyces cerevisiae with 16 samples.

Results

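The 6 genes described here, ARO8, ARO9, ARO10, ARO80, BAT1 and BAT2, encode the first enzymes of the Ehrlich pathway of baker's yeast and the activator of some of them. They were chosen by name, each through the open reading frame that the array lists for its probe, and all 6 were found among the 6256 gene probes of the array (ARO8 is YGL202W, ARO9 is YHR137W, ARO10 is YDR380W, ARO80 is YDR421W, BAT1 is YHR208W and BAT2 is YJR148W). RNA came from Saccharomyces cerevisiae Lalvin EC1118, an industrial wine yeast, grown in an artificial grape must at 22 °C in bioreactors divided by a dialysis membrane. In the mixed fermentations the spoilage yeast Dekkera bruxellensis ZIM 701 grew behind the membrane, and in the control fermentations that side was kept sterile. S. cerevisiae was sampled at 22 h, labelled exponential growth, at 92 h and 144 h, labelled early and late stationary phase, and at 187 h, labelled autolytic phase in the sample records and growth decline in the series' design. Each of the 8 groups held 2 one-colour arrays, 16 in all, numbered as replicates 1 and 2. The labels do not say whether the arrays with the same number came from 1 vessel sampled 4 times, so p-values measure the spread between these arrays. The 2 yeasts shared medium through the membrane but the cells were kept apart, and all S. cerevisiae cells were of 1 industrial strain.

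The Ehrlich pathway turns amino acids that yeast takes up into higher alcohols. A transaminase moves the amino group of leucine, valine, isoleucine, phenylalanine, tyrosine or tryptophan to an oxo acid, a decarboxylase shortens the resulting oxo acid to an aldehyde, and dehydrogenases reduce the aldehyde to an alcohol or oxidise it to an acid. The alcohols (isoamyl alcohol, isobutanol, phenylethanol) are among the main aroma compounds that yeast gives to wine. ARO8 and ARO9 encode the aromatic aminotransferases, BAT1 and BAT2 the mitochondrial and the cytosolic branched-chain aminotransferase, ARO10 an oxo acid decarboxylase, and ARO80 a zinc cluster activator of ARO9 and ARO10 that responds to aromatic amino acids. BAT1, BAT2 and ARO8 also carry the transamination that ends the synthesis of the same amino acids.

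A level is the log2 intensity of a probe, as the mean of its 2 spots, minus the 75th percentile of the log2 intensities of all gene probes on that array. A level of 0 is therefore that percentile itself, and levels are compared only between arrays for 1 gene and never between genes. Since a level is relative to the rest of the array, it does not measure RNA per cell, and in bulk RNA fewer expressing cells and less RNA in each cell cannot be told apart. Each gene had 1 probe, well above background on 16 of 16 arrays, with 0 saturated and 0 outlier spots. The dimmest spot lay 8.36 times above the local background for ARO80, 23.4 times for ARO8, 25.1 times for ARO9, 33.4 times for ARO10, 72.5 times for BAT2 and 444 times for BAT1. The 2 spots of a probe differed by at most 0.28 on the log2 scale, except for ARO80 on the control array at 187 h of replicate 1, where its spots read -2.06 and -3.28. Across arrays the 75th percentile of intensity ran from 1432.8 to 7386.2, between 95.43% and 97.99% of gene probes were well above background, and the 2 arrays of a group correlated at 0.983 to 0.995 over the probes. Replicate 1 arrays share slide 1 and replicate 2 arrays slide 2. On both slides the mixed arrays lie in one row and the control arrays in the other, so kind of fermentation and row on the slide cannot be told apart.

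ARO10, ARO9 and ARO8 were high in exponential growth and low at every later time, in mixed and control fermentations alike. From 22 to 92 h, averaged over both kinds, the ARO10 level fell 9.21-fold, that of ARO9 7.60-fold and that of ARO8 4.05-fold. BAT2, the cytosolic transaminase, fell 1.66-fold and the activator ARO80 1.30-fold. The difference for BAT1, the mitochondrial transaminase, was -0.11 ± 0.16 (log2, SE) and did not pass. Thus 5 of 6 genes fell and 0 rose, at an adjusted p under 0.05 in limma's moderated test over 6184 probes, while 29.2% of all probes were called lower and 36.2% higher at the same step. The median of the 6 differences was -1.37, against 0.07 over all probes tested.

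**Figure D1:**
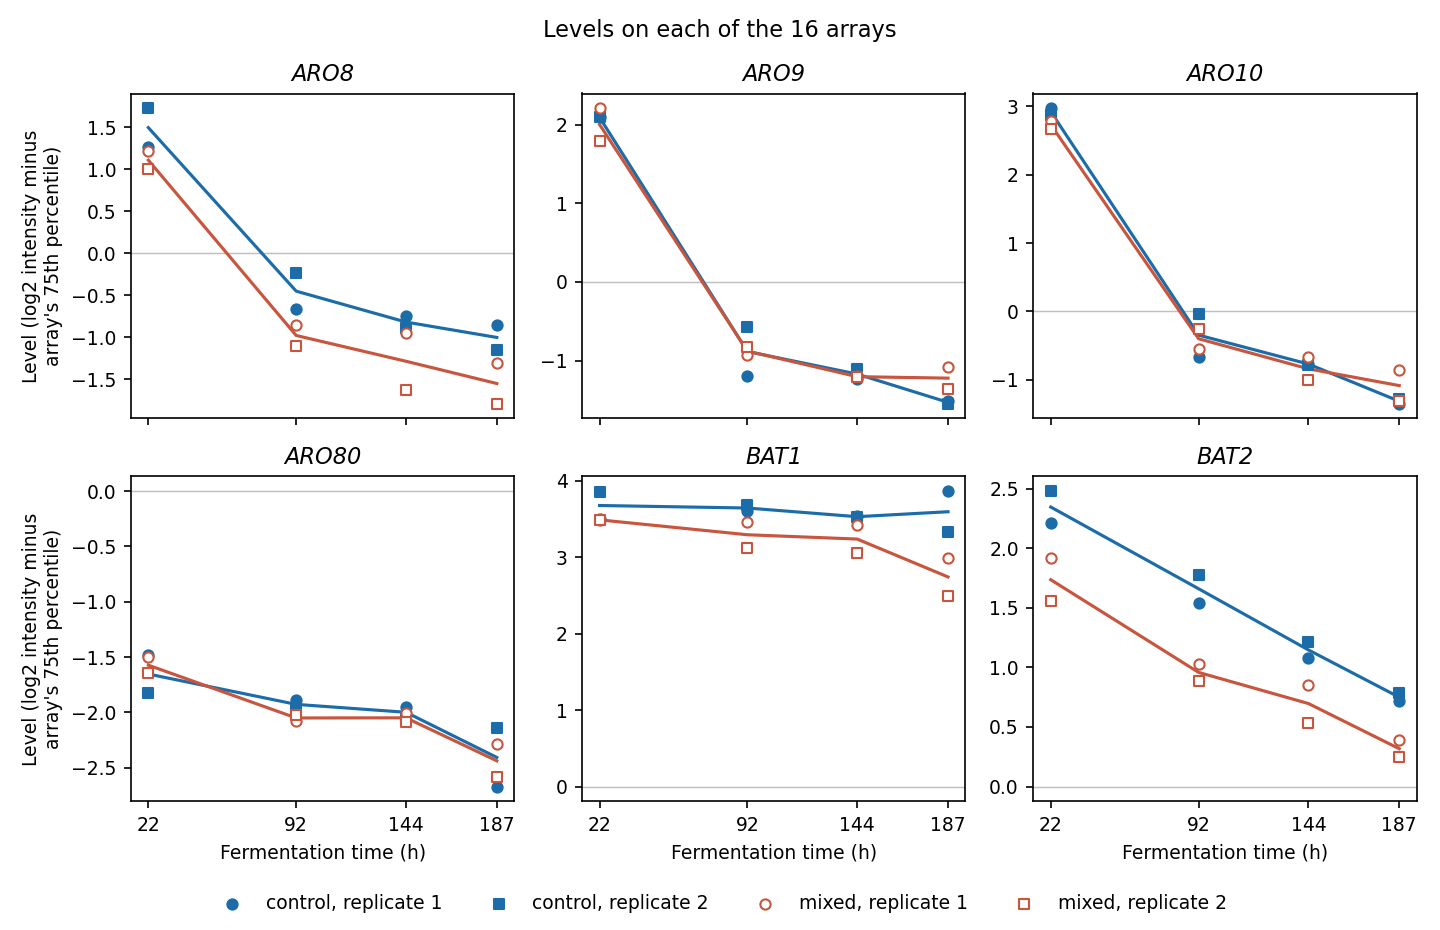
Level of each gene (log2 intensity minus the array's 75th percentile) against fermentation time on each of the 16 arrays. Filled blue symbols are control and open red symbols mixed arrays, circles replicate 1 and squares replicate 2, and lines join the means of the 2 arrays of a group. ARO8, ARO9 and ARO10 drop between 22 and 92 h in both kinds, BAT2 declines over all 4 times, and with this scaling the mixed arrays of ARO8, BAT1 and BAT2 lie below the control arrays at every time (with the spike-in scaling the mean differences of ARO8 and BAT1 at 22 h are above 0).

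For ARO10, which encodes the decarboxylase, the control arrays read 2.97 and 2.87 at 22 h and -0.66 and -0.03 at 92 h. The mixed arrays read 2.79 and 2.68 at 22 h and -0.55 and -0.25 at 92 h. The 4 arrays at 22 h lay above the 4 arrays at 92 h without overlap, and above all later arrays. For this gene and those below, the share of all probes without overlap at this step was not counted. The difference was -3.20 ± 0.15 (log2, SE, 4 arrays against 4), with an adjusted p of 2.482e-08 in limma, and within the slides it was -3.49 and -2.92. It was -3.27 in control and -3.14 in mixed fermentations.

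ARO9, the aromatic aminotransferase of amino acid breakdown, read 2.09 on both control arrays at 22 h and -1.20 and -0.57 on those at 92 h. On the mixed arrays it read 2.21 and 1.79 at 22 h and -0.93 and -0.83 at 92 h. The times again did not overlap, and the lowest of the 4 arrays at 92 h was the control array of replicate 1. The difference was -2.93 ± 0.14 (limma adjusted p = 2.534e-08), with -3.21 on slide 1 and -2.64 on slide 2, and it was -2.97 in control and -2.88 in mixed fermentations.

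ARO8, the other aromatic aminotransferase, read 1.26 and 1.73 on the control arrays at 22 h and -0.67 and -0.24 at 92 h. Its mixed arrays read 1.22 and 1.00 at 22 h and -0.86 and -1.10 at 92 h. No array at 92 h reached the lowest array at 22 h. The difference was -2.02 ± 0.18 (limma adjusted p = 2.514e-06), alike on the slides at -2.01 and -2.03. By kind it was -1.95 in control and -2.09 in mixed fermentations.

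BAT2 read 2.21 and 2.48 on the control arrays at 22 h and 1.54 and 1.78 at 92 h. The mixed arrays read 1.92 and 1.55 at 22 h and 1.03 and 0.89 at 92 h. Within a kind the times did not overlap, but the control arrays at 92 h reached the mixed arrays at 22 h. The averaged difference was -0.73 ± 0.12 (limma adjusted p = 0.0002066), -0.78 on slide 1 and -0.68 on slide 2.

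ARO80 changed little beside its targets. It read -1.48 and -1.82 on the control arrays and -1.50 and -1.65 on the mixed arrays at 22 h. At 92 h the control arrays read -1.89 and -1.97 and the mixed arrays -2.07 and -2.03, all below the 22 h arrays. The difference of -0.38 ± 0.13 passed (limma adjusted p = 0.02184). It missed the threshold when control at 22 h replicate 1, mixed at 22 h replicate 1, control at 92 h replicate 2 or mixed at 92 h replicate 1 was left out (adjusted p up to 0.0845), and with the second spot alone (0.148).

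BAT1 read 3.50 and 3.85 on the control and 3.49 on both mixed arrays at 22 h. At 92 h it read 3.61 and 3.68 on the control and 3.47 and 3.12 on the mixed arrays, so that the times overlapped. Its 95% interval for the step ran from -0.46 to 0.23 (limma adjusted p = 0.547).

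Taken by kind, the step was called lower for ARO8, ARO9, ARO10 and BAT2 in control fermentations, where 23.3% of all probes were called lower. In mixed fermentations those 4 and ARO80 were called, against 23% of all probes, and the call of ARO80 held in 6 of 16 refits without 1 array (adjusted p up to 0.178) and was lost with the second spot alone (0.219). ARO80 differed by -0.27 (limma adjusted p = 0.226) in control and by -0.48 (0.0433) in mixed fermentations. The test of the difference between the kinds called 0 of 6 genes and 0% of probes (209 of 6184 had an unadjusted p under 0.05), and for ARO80 it gave -0.20 ± 0.26.

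Scaling the arrays to 7 spike-in RNAs added before labelling in place of the 75th percentile moved the median of all probes at this step from 0.07 to -1.09. With it 4732 probes were called, of which 339 were higher, against 4041 and 2236 with the 75th percentile. All 6 genes were then called lower, BAT1 included at -1.28. Among the genes named here, the adjusted p under the spike-in scaling followed the size of the difference within a comparison. A call kept or lost under it, here and below, therefore reflects that size and not the gene's own spread. Relative to the median of all probes under that scaling ARO10 differed by -3.28, ARO9 by -3.00, ARO8 by -2.09, BAT2 by -0.81, ARO80 by -0.45 and BAT1 by -0.19, and the order of the 6 was kept.

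After 92 h the changes were small. Between 92 and 144 h the control arrays of BAT2 went to 1.08 and 1.21 and the mixed arrays to 0.86 and 0.54. BAT2 was the 1 gene of 6 called, at -0.39 ± 0.12 (limma adjusted p = 0.0476), while 9.04% of all probes were called lower and 6.34% higher (559 and 392, against 389 and 514 with the median of each array). That call was lost in 9 of 16 refits that left out 1 array, with adjusted p up to 0.18. ARO10 differed by -0.43 ± 0.15 (0.0742), ARO9 by -0.31 ± 0.14 (0.153) and ARO8 by -0.34 ± 0.18 (0.229). Without the control array of replicate 1 at 92 h, the lowest array of ARO9 and ARO10 at that time, ARO10 differed by -0.59 (0.0289) and ARO9 by -0.46 (0.0409). ARO80 and BAT1 differed by -0.04 and -0.09. Within control fermentations 0 of 6 genes passed at this step (0.194% of all probes called lower) and within mixed fermentations 0 of 6 (1.65%). The change in mixed fermentations minus that in control gave 0 of 6 genes and 0% of probes, with 36 probes at an unadjusted p under 0.05.

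From 144 to 187 h 0 of 6 genes passed, and 5.51% of all probes were called lower and 5.81% higher (341 and 359, against 131 and 509 with the median of each array). BAT2 went to 0.71 and 0.79 on the control and 0.39 and 0.25 on the mixed arrays, a difference of -0.39 ± 0.12 (limma adjusted p = 0.0561), as large as at the step before. ARO80 went from between -2.09 and -1.95 on the 4 arrays at 144 h to between -2.67 and -2.14 at 187 h, a difference of -0.40 ± 0.13 (0.0641). The times did not overlap for ARO80, but the lowest array at 187 h, control replicate 1, is the one whose spots were apart. Its first spot, at -2.06, lay within the range of the 144 h arrays, and its second read -3.28. Without control replicate 2 at 187 h, which leaves that array as the only control array of the time, ARO80 differed by -0.53. Under the alternatives other than leaving out an array, the averaged ARO80 difference ran from -0.66 to -0.25 and was never called. The differences of ARO10, ARO8, BAT1 and ARO9 were -0.40, -0.22, -0.22 and -0.19. Within control fermentations 0 of 6 genes passed (0.0162% of probes in either direction), as within mixed fermentations (0.388% lower). The change in mixed minus that in control was not called for any of the 6 or for any probe (0%, with 188 at an unadjusted p under 0.05). BAT1 had -0.56 ± 0.32 there, with -0.50 in mixed and 0.06 in control fermentations.

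Over the whole course the 6 genes split by the size of their range. The distance from the highest to the lowest of the 8 group means was 18.91-fold for ARO10, 12.3-fold for ARO9, 8.27-fold for ARO8 and 4.077-fold for BAT2. It was 1.912-fold for BAT1 and 1.822-fold for ARO80. On the log2 scale these ranges were 4.24, 3.62, 3.05, 2.03, 0.93 and 0.87, where the median over all probes tested was 1.12. That of ARO10 exceeded 98.04% of the probes and that of ARO80 35.43%.

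In the order of group means, ARO8, ARO9, ARO10 and BAT2 were highest in control fermentations at 22 h and next in mixed fermentations at 22 h. With the spike-in scaling mixed was the higher at 22 h for ARO8 (by 0.15), ARO9 (0.44) and ARO10 (0.34), while BAT2 differed by -0.08. ARO9 overlapped between the kinds at 22 h, and so did every neighbouring pair of groups in its order from 92 h on, except that mixed at 187 h (-1.09 and -1.36) lay above control at 187 h (-1.51 and -1.55). For ARO10 the groups at 92 h (means -0.35 and -0.40) lay above those at 144 h (-0.77 and -0.84) without overlap, and the mixed arrays at 144 and 187 h overlapped. BAT2 had its groups in the order of time within each kind. In the joint order 2 neighbouring pairs of BAT2 groups overlapped, mixed at 22 h with control at 92 h and control at 187 h with mixed at 144 h. By these levels BAT1 was ordered by kind. Its 4 control groups, with means from 3.53 to 3.68, came above its 4 mixed groups, with means from 2.74 to 3.49. The control arrays of BAT1 at 187 h (3.86 and 3.33) lay on either side of its mixed arrays at 22 h. With the spike-in scaling BAT1 was 0.35 higher in mixed than in control fermentations at 22 h, so the order by kind was not kept. How many of all probes were ordered by kind was not counted. ARO80 had its 2 highest groups at 22 h and its 2 lowest at 187 h, and its middle groups at 92 and 144 h overlapped.

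Ratios of 2 genes on the same array do not change when a constant is subtracted from that array's log2 values, as the 75th percentile, median and spike-in scalings do, but they can change with quantile normalization. They are given as differences from the mean of the 4 arrays at 22 h, because the level of one probe cannot be set against that of another. The BAT1 to BAT2 ratio was higher at the later times. It was 0.62 above the 22 h mean at 92 h (4 arrays, 0.36 to 0.90), 0.92 at 144 h (0.77 to 1.02) and 1.09 at 187 h (0.70 to 1.61), or 2.13-fold. It lay above 3 of the 4 arrays of 22 h on every later array, and the mixed arrays at 22 h (0.03 and 0.39) were above the control arrays (-0.25 and -0.17). The ARO10 to ARO9 ratio was below its 22 h mean at the later times, at -0.28, -0.40 and -0.61. The order of the times was the same in both kinds. The ARO8 to ARO9 ratio was higher than at 22 h by 0.91, 0.88 and 0.84, and on the control arrays of each later time it lay above the mixed arrays except at 144 h, where 0.96 on a control array met 0.99 on a mixed one. The ARO9 to ARO80 ratio, of a target over its activator, was at -2.55, -2.82 and -2.61, which is 5.86-fold, 7.07-fold and 6.11-fold lower. These ratios were not tested.

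**Figure D2:**
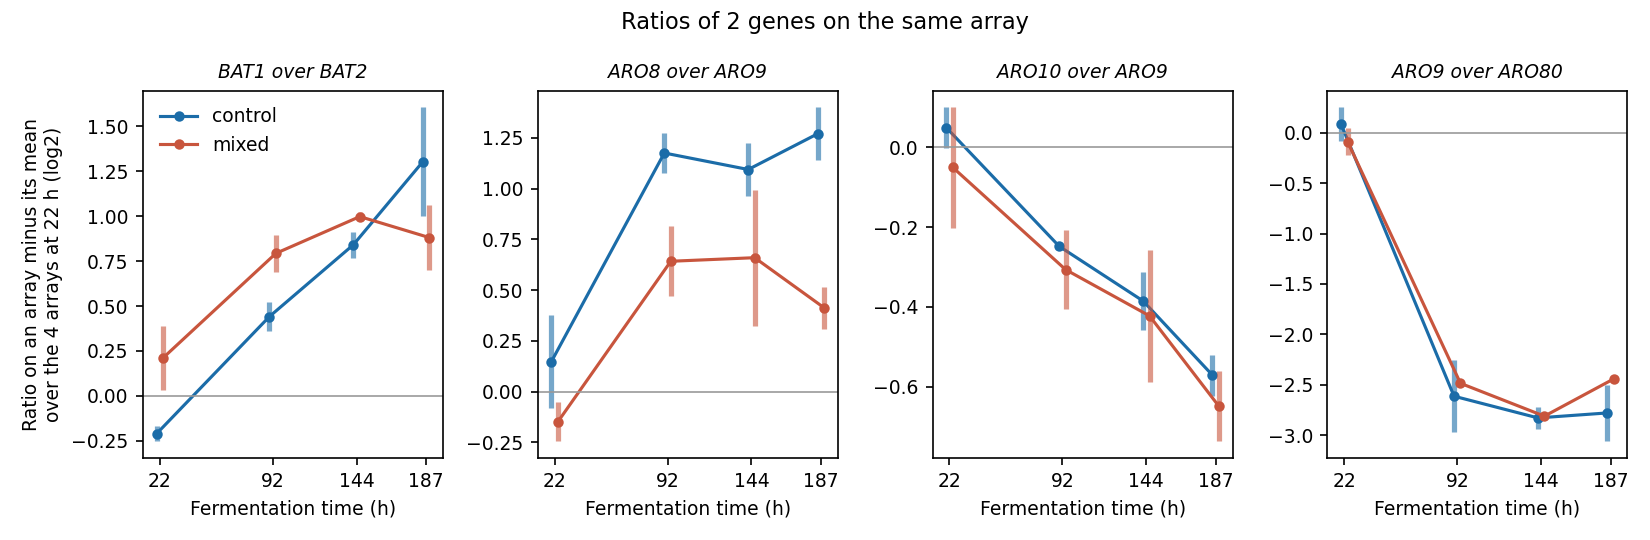
Ratio of 2 genes on the same array, as its log2 value minus the mean over the 4 arrays at 22 h, against fermentation time. Points are means of 2 arrays, vertical bars run from the lower to the higher array, blue is control and red mixed. BAT1 over BAT2 reaches a mean of 1.09 over both kinds at 187 h. ARO8 over ARO9 has means of 1.17, 1.09 and 1.27 in control fermentations from 92 h on. In mixed fermentations they are 0.64, 0.66 and 0.41. ARO10 over ARO9 goes down to a mean of -0.61 over both kinds, and ARO9 over ARO80 stays between -3.06 and -2.26 on the later arrays.

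The study's own question was how S. cerevisiae responds to D. bruxellensis on the other side of the membrane. BAT2, BAT1 and ARO8 were lower in mixed than in control fermentations when the 4 times were averaged. ARO9, ARO10 and ARO80 differed by less than their SE. The differences were -0.55 ± 0.08 for BAT2 (1.46-fold lower, limma adjusted p = 0.0122), -0.42 ± 0.11 for BAT1 (1.34-fold, 0.0419) and -0.48 ± 0.13 for ARO8 (1.40-fold, 0.043). They were 0.05 ± 0.10 for ARO9 (0.779), -0.02 ± 0.11 for ARO10 (0.914) and -0.03 ± 0.09 for ARO80 (0.845), with 95% intervals from -0.17 to 0.26, from -0.26 to 0.21 and from -0.23 to 0.17. Thus 3 of 6 genes were called lower and 0 higher, while 5.37% of all probes were called lower and 3.22% higher. In numbers this was 332 lower and 199 higher, against 209 and 261 with the median of each array as the scale and 4 and 137 with the spike-ins.

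**Figure D3:**
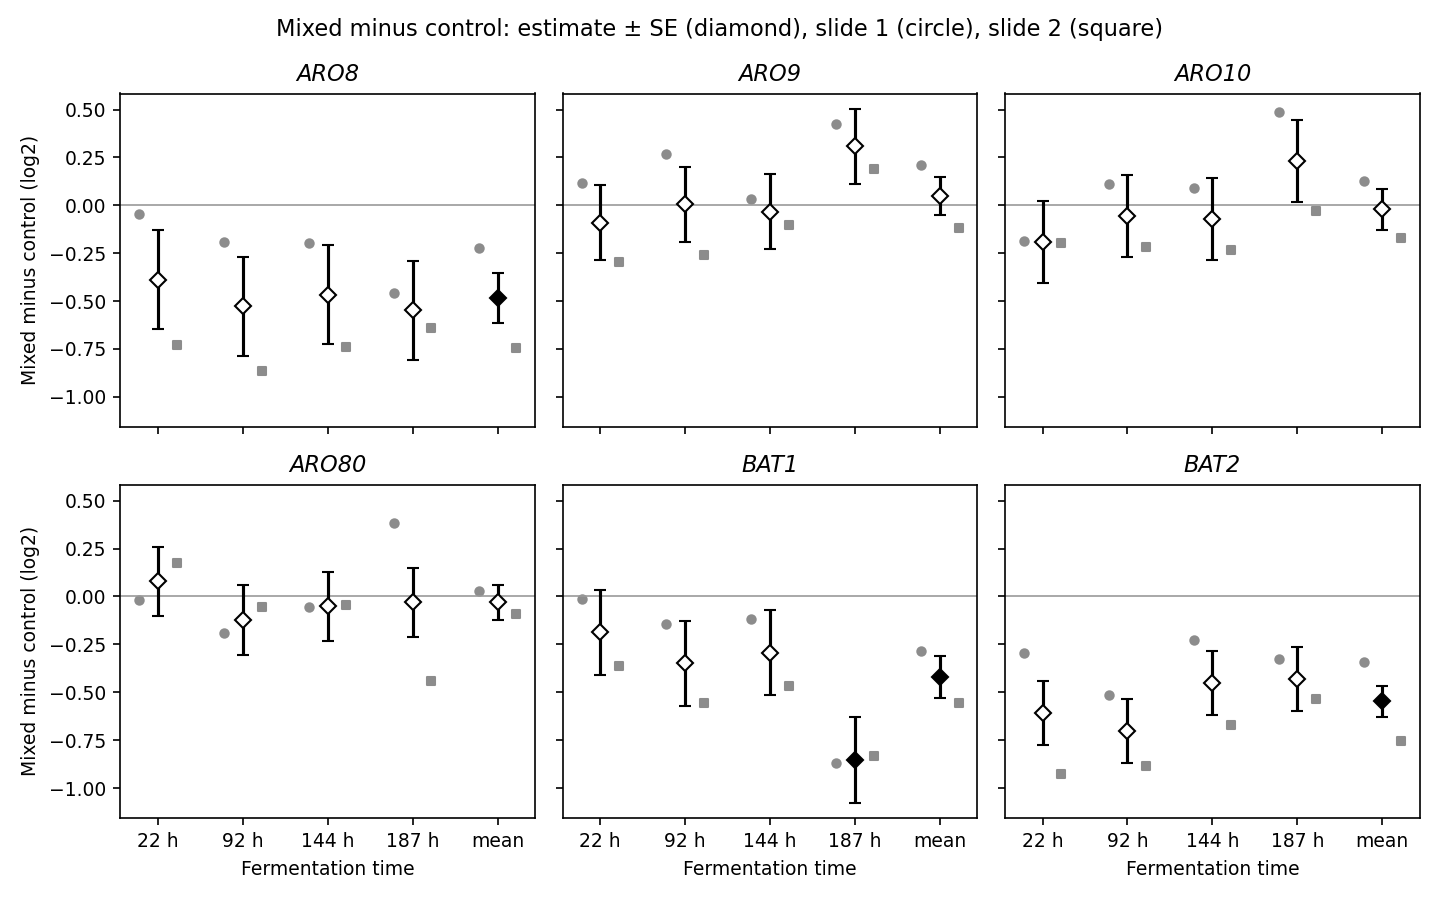
Mixed minus control difference (log2) of each gene at 4 times and as their mean. Diamonds with bars are the estimate ± SE, filled where the adjusted p is under 0.05, and grey circles and squares are the differences within slide 1 and slide 2. All values of ARO8, BAT1 and BAT2 lie below 0 on both slides with the 75th percentile scaling (with the spike-in scaling ARO8 and BAT1 are above 0 at 22 h), and those of ARO9, ARO10 and ARO80 lie on either side of 0.

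With the 75th percentile scaling BAT2 was lower on the mixed array in 8 of 8 pairs of the same slide and time, and its mean difference was below 0 at 4 of 4 times with the spike-in scaling too. Such pairs share a slide only. If arrays of 1 kind and number came from 1 vessel, the 8 pairs are not separate observations. The control arrays read 2.21 and 2.48 against mixed arrays of 1.92 and 1.55 at 22 h, and 1.54 and 1.78 against 1.03 and 0.89 at 92 h. They read 1.08 and 1.21 against 0.86 and 0.54 at 144 h, and 0.71 and 0.79 against 0.39 and 0.25 at 187 h. The kinds did not overlap at any of the 4 times. The difference was -0.61, -0.70, -0.45 and -0.43 in the order of time, and none of these passed by itself. Averaged within a slide it was -0.34 on slide 1 and -0.76 on slide 2, and the call of the averaged difference held in 16 of 16 refits without 1 array (adjusted p up to 0.0432).

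ARO8 was also lower in 8 of 8 pairs, though with the spike-in scaling its mean difference at 22 h was above 0. The control arrays read -0.75 and -0.89 and the mixed arrays -0.95 and -1.63 at 144 h, and -0.86 and -1.15 against -1.31 and -1.79 at 187 h, and no time overlapped, those at 22 and 92 h given above included. Its differences were -0.39, -0.53, -0.47 and -0.55 in the order of time. The pairs on slide 1 averaged -0.22 and those on slide 2 -0.74. The closest pair was that of slide 1 at 22 h, 0.05 apart.

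BAT1 was lower in 8 of 8 pairs too, with the same exception at 22 h under the spike-in scaling, and by the most at 187 h. At 144 h the control arrays read 3.54 and 3.52 and the mixed arrays 3.42 and 3.06. At 187 h they read 3.86 and 3.33 against 2.99 and 2.49. The difference at 187 h was -0.85 ± 0.22, or 1.81-fold lower (limma adjusted p = 0.0467), with -0.87 on slide 1 and -0.83 on slide 2, after -0.19, -0.35 and -0.29 at the earlier times. BAT1 was the 1 gene of 6 called at 187 h, where 4.46% of all probes were called lower and 2.81% higher (276 and 174, against 140 and 218 with the median of each array and 6 and 40 with the spike-ins).

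These calls lie close to the threshold. The one of BAT1 at 187 h held in 4 of 16 refits without 1 array, and was lost without control replicate 1 or mixed replicate 2 of 187 h (-0.58 and -0.60, adjusted p = 0.285 and 0.227) and without any array of 92 or 144 h or of mixed fermentations at 22 h, where the difference was as before and the adjusted p between 0.0511 and 0.0712. The averaged calls held in 3 of 16 refits for ARO8 and in 4 of 16 for BAT1. Over all probes the number called at 187 h ran from 0 to 576 in these refits, against 450, and that for the average from 56 to 865, against 531. The average over 22, 92 and 144 h alone gave -0.59 for BAT2 (adjusted p = 0.0583), -0.46 for ARO8 (0.212) and -0.28 for BAT1 (0.378). If arrays of 1 kind and number came from 1 vessel, which the labels do not say, the unit is the mean of its 4 times, 2 values against 2. The adjusted p then was 0.239 for BAT2, 0.247 for ARO8 and 0.244 for BAT1. Both of these settings were chosen after seeing the data.

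A lower value in 8 of 8 pairs occurred in 274 of 6182 probes with a value on every array (4.43%), and mixed arrays below control arrays without overlap at all 4 times in 130 of 6184 (2.1%). ARO8, BAT1 and BAT2 are among both, and every probe of the second set is in the first by construction. With the spike-in scaling the median of all probes at 22 h was 0.51 higher in mixed fermentations, with 88 probes called higher and 1 lower, and there ARO8 (0.15) and BAT1 (0.35) were above 0, while BAT2 was at -0.08. Relative to that median they were at -0.36, -0.16 and -0.59. At 92, 144 and 187 h these genes were below 0 under that scaling as well, and 0 of the 6 was called at any time or on average.

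At single times before 187 h the comparison of mixed with control fermentations called 0 of 6 genes at 22 h, at 92 h and at 144 h in limma's test, with 0%, 0.0162% and 0% of all probes called in either direction. An unadjusted p under 0.05 was reached by 390, 348 and 568 probes, and each time by 1 of the 6 genes, BAT2. At 187 h the mixed arrays of ARO9 lay above its control arrays (-1.09 and -1.36 against -1.51 and -1.55), and how many of all probes did so was not counted. That difference was 0.31 ± 0.20 (adjusted p = 0.325). ARO9 was lower in 3 of 8 pairs, ARO10 in 5 of 8 and ARO80 in 6 of 8.

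The other genes of the pathway and its surroundings were taken as 5 lists with 60 genes in all, each with a probe that was tested. Of 22 genes of the later Ehrlich steps (decarboxylases, alcohol and aldehyde dehydrogenases, and the acid exporter with its activator), 8 rose and 10 fell from 22 to 92 h, a step at which 36.2% of all probes were called higher and 29.2% lower. Their median was -0.25. PDR12, the exporter of organic acids (-1.70), and YPR1, an aldehyde reductase (-1.24), fell. ADH2, the glucose-repressed alcohol dehydrogenase, rose by 3.67 and ADH1, the main fermentative one, by 0.90. Of 8 regulators and further targets, 3 rose and 4 fell, with a median of -0.25. The GATA repressor DAL80 rose by 2.95 and the GATA activator GAT1 by 1.09, while another GATA repressor, GZF3 (-1.08), and the GATA activator GLN3 (-0.51) fell.

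Of the 5 lists, aromatic amino acid synthesis had the largest share of genes that fell. Of its 12 genes 11 fell and 1 rose, with a median of -1.25. ARO4, which encodes a first enzyme of the shikimate route, differed by -2.12 and TRP3 of tryptophan synthesis by -1.83, while TRP1 rose by 0.32. Of 9 genes of branched-chain amino acid synthesis 4 fell and 2 rose, with a median of -0.58. Threonine deaminase ILV1 (-1.25) and isopropylmalate synthase LEU4 (-1.23) fell, and LEU1 and LEU2 of the leucine branch rose by 0.91 and 0.73. Of 9 permeases and sensors of these amino acids 4 fell and 5 rose, with a median of 0.40. BAP3, a permease of branched-chain and other amino acids (-3.14), and the tryptophan permease TAT2 (-2.17) fell, while the general permease GAP1 rose by 2.56 and TAT1 by 0.95.

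With the spike-in scaling, which moves every gene at this step by the same amount, ADH1 (-0.27), GAT1 (-0.07), TRP1 (-0.84), LEU1 (-0.25), LEU2 (-0.43) and TAT1 (-0.21) turned below 0, and of these TRP1 was called lower. The lists then had 2 genes up and 15 down of 22 for the later steps, 1 and 6 of 8 for the regulators, 0 and 12 of 12 for aromatic synthesis, 0 and 7 of 9 for branched-chain synthesis, and 1 and 5 of 9 for the permeases. ADH2 (2.51), DAL80 (1.79) and GAP1 (1.40) stayed above 0. The list medians relative to that of all probes were the same with both scalings, at -1.32 for aromatic synthesis, -0.65 for branched-chain synthesis, -0.33 for the regulators, -0.32 for the later steps and 0.32 for the permeases.

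**Figure D4:**
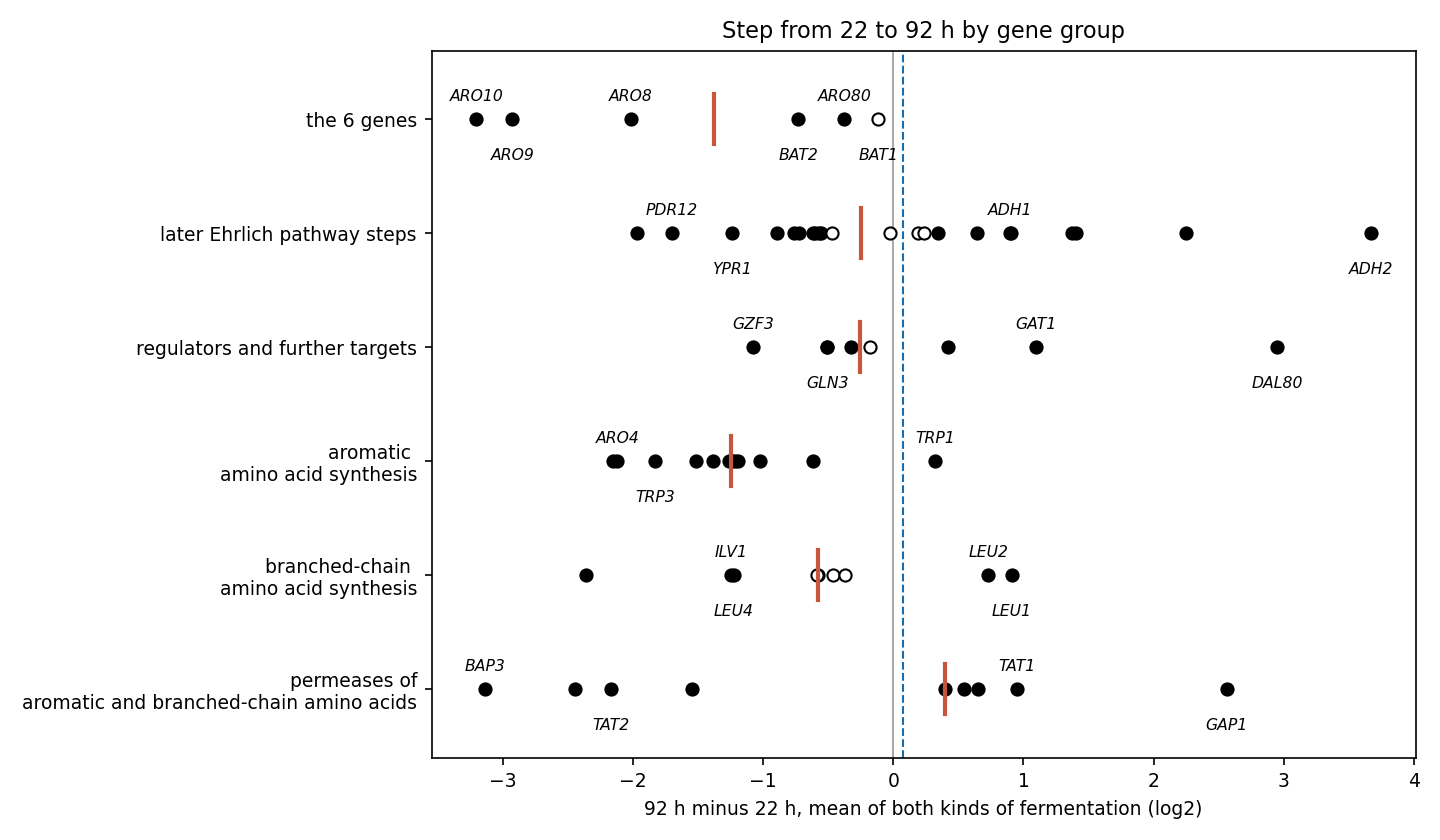
Difference between 92 and 22 h (log2, mean of both kinds) for the 6 genes and for 5 lists of genes around the pathway. Each circle is a gene, filled where the adjusted p is under 0.05, the red bar is the median of the row, and the dashed line is the median of all probes (0.07). The 6 genes have a median of -1.37, the aromatic synthesis genes of -1.25, and the permeases run from -3.14 to 2.56. With the spike-in scaling every circle lies further to the left by the same amount.

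In the average of mixed minus control few genes of the lists passed. Of the later steps 1 gene was higher and 3 were lower, with a median of 0.04. ALD6, the main cytosolic acetaldehyde dehydrogenase, differed by 1.00 ± 0.20, the mitochondrial aldehyde dehydrogenase ALD5 by -0.43 ± 0.08 and the alcohol dehydrogenase ADH5 by -0.56 ± 0.13 (limma adjusted p = 0.0217, 0.0156 and 0.0282). Of branched-chain synthesis 3 of 9 genes were lower and 0 higher, with a median of -0.37. ILV3, a dehydratase shared by valine, isoleucine and leucine synthesis, differed by -0.62 ± 0.11 (0.0168) and LEU2 by -0.54 ± 0.07 (0.00669), beside the -0.55 of BAT2 and the -0.42 of BAT1. Of aromatic synthesis 2 of 12 were lower and 0 higher, with a median of -0.22. ARO2, chorismate synthase, differed by -0.44 ± 0.08 (0.0156) and ARO4 by -0.46 ± 0.11 (0.0317), beside the -0.48 of ARO8. None of the 8 regulators passed, the smallest p being that of GLN3 at -0.16 (0.103). Of the permeases AGP1 was higher, by 0.55 ± 0.11 (0.0217), and 0 were lower. The control means of AGP1 were 3.91, 1.26, 3.93 and 4.20 in the order of time. Its mixed means were 3.63, 3.19, 4.39 and 4.27, so the kinds were furthest apart at 92 h and mixed was the lower at 22 h. The median of all probes was -0.03, and 5.37% of them were called lower and 3.22% higher. With the spike-in scaling ALD6 kept its call (1.12, 6.234e-05), while the calls of ALD5, ADH5, ILV3, LEU2, ARO2, ARO4 and AGP1 were lost (adjusted p from 0.0821 for AGP1 to 0.878 for ALD5), with the same signs.

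At 187 h, where BAT1 was called, ADH5 (-1.15), ALD5 (-0.60), LEU2 (-0.95) and ARO2 (-0.87) were lower and ALD6 (1.57) and GZF3 (0.85) higher in mixed fermentations. These were the calls among the 60 genes at that time, where 4.46% of all probes were called lower and 2.81% higher. All 6 calls were lost with the spike-in scaling (adjusted p from 0.0572 for ALD6 to 0.999), with differences of the same sign. At 92 h AGP1 was higher by 1.93 ± 0.22 (limma adjusted p = 0.0143), and it was the 1 call among them at the 3 earlier times.

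At the later steps few genes of the lists passed. From 92 to 144 h, where BAT2 passed, 2 of the later steps rose, WAR1 (0.63), the activator of PDR12, and ADH2 (0.88), and 2 fell, ALD5 (-0.50) and ADH6 (-0.45). ARO7, chorismate mutase (-0.63), fell, ESBP6 among the regulators and further targets rose by 0.33, and the permeases AGP1 and TAT1 rose by 1.94 and 1.16. By kind AGP1 rose by 2.67 in control and by 1.21 in mixed fermentations. Of all probes 9.04% were called lower and 6.34% higher at this step. With the spike-in scaling AGP1 kept its call (1.64), while those of WAR1, ADH2, ALD5, ADH6, ARO7, ESBP6 and TAT1 were lost (adjusted p from 0.101 for ARO7 to 0.956 for ESBP6). From 144 to 187 h ALD5 (-0.39), YPR1 (-0.42) and LEU2 (-0.47) fell and ESBP6 (0.34) rose, where 5.51% of all probes were called lower and 5.81% higher. All 4 calls were lost with the spike-in scaling (adjusted p from 0.352 to 0.879), where ESBP6 was at 0.08. With the median of each array 0 of the 22 later-step genes was called.

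The likeness of other genes to the 6 was taken as Pearson's r over the 8 group means, among 5123 probes with a symbol and well above background on every array. The 8 means share arrays, scaling and the large step after 22 h, so r is a description. GRX8 and VAS1 were among the 3 most like ARO8 (r of 0.9988 and 0.9985). The 3 most alike were BAP3, HOF1 and GIC1 for ARO9 (0.9977 to 0.9985), and ADE2, HOF1 and GCN20 for ARO10 (0.9968). They were SVL3, SUA5 and ALO1 for ARO80 (0.9788 to 0.9854), GWT1, ALG3 and GDS1 for BAT1 (0.9732 to 0.9887), and CHC1, TMN3 and TMT1 for BAT2 (0.9852 to 0.987). Since r does not weigh the size of a change, TMN3 is listed although its group means ranged over 0.33 (log2), against 2.03 for BAT2. An r above 0.95 was reached by 657 probes with ARO8, 532 with ARO10 and 418 with ARO9, against 148 with BAT2, 70 with ARO80 and 14 with BAT1. Among the 6 genes themselves ARO9 and ARO10 were the most alike (0.998), ARO8 and BAT2 had 0.926, BAT1 and BAT2 0.742, and ARO9 and BAT1 were the least alike (0.367). The 3 genes most like BAT1 were likewise lower in mixed fermentations on average, GWT1 at -0.36, ALG3 at -0.33 and GDS1 at -0.35, and the likeness used those same means.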

How the data were processed

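RNA of S. cerevisiae was hybridised to 16 one-colour (Cy3) Agilent yeast arrays, and per the file headers the deposited intensities are the processed signals of Agilent Feature Extraction 10.7.3.1, not normalized between arrays. The authors' deposited log2 table was set against them: at least 99.58% of its values on each array lay within 0.05 of the scanner's log2 intensity plus a constant. Its medians differ between times, so it served as an alternative within times only.

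Outlier spots (50) were left out, the log2 intensities of a probe's spots averaged, and each array's 75th percentile subtracted. Of 6256 gene probes, 6184 were well above background on at least 2 arrays and were tested, and 72 were not. limma 3.58.1 in R 4.3.3 fitted 1 mean per group to all 16 arrays, with Benjamini-Hochberg adjustment and a threshold of 0.05. With the 75th percentile scaling it had 8 residual and 3.26 prior degrees of freedom. The fit was also run on simulated arrays with independent noise, where only the recovery of shifts of 2 or more (log2) was required. That check does not bear on smaller differences or on arrays that share a vessel. Of the probes' names, 5756 matched a RefSeq symbol and 500 did not. The number of arrays, 2 a group, limits the precision. Alternatives were 5 other scalings or backgrounds, other filters, blocks, single spots, and each array left out.

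The 6 genes and the 5 lists were chosen with earlier results of these data known. Of each list at most 2 genes per direction are named, those of smallest p. Replicate numbers are the slides: the deviations of mixed and control arrays of 1 number correlated at -0.468 at 22 h and at 0.245, 0.253 and 0.108 later, so the numbers were not taken to pair the samples. Probe, promoter and protein sequences were not analysed here. One gene that the likeness rule names for ARO8 is not reported here.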

Additional observations from a re-analysis of the deposited data

How the results depend on the processing

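For the 6 genes the fall from 22 to 92 h kept its count of calls within the limit of 1.5 times under every alternative run. With 1 array left out, 1502 of 1632 differences kept their sign and their side of the threshold, 61 lost and 3 gained a call, and 66 that were not called changed sign. Under the other alternatives it was 1103 of 1206, with 32 lost, 5 gained and 66 changed in sign. No called difference was reversed. The mixed minus control count at 187 h went from 1 to 0 with the median of each array, the spike-in scaling, normexp with quantile normalization, the arrays of that time alone, or the first spot alone, and ran from 0 to 1 with 1 array left out. The averaged count went from 3 to 1, BAT2, with the median of each array, with kind and number, taken as the fermentation, as a random block (correlation 0.0661), or without 92 or 144 h. It went to 0 with the spike-in scaling, with the mean of each kind and number, or without 187 h, and ran from 1 to 3 with 1 array left out. Of the 17 alternatives other than leaving out 1 array, the averaged call was kept in 14 for BAT2. It was kept in 9 for ARO8 and in 9 for BAT1. From 92 to 144 h the count went from 1 to 0 with the median of each array, the spike-in scaling, normexp, either spot alone, and the replicate block, and ran from 0 to 2 with 1 array left out. From 144 to 187 h it went from 0 to 1, BAT2, with quantile normalization or the fermentation block, and ran from 0 to 1 with 1 array left out.

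The replicate block changed no other count. The cause of these shifts was not tested.

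The 2 arrays a group limit what can pass. Kind and row on the slide cannot be told apart, and sampling time follows the columns.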
